A study of Homo sapiens with 9 samples.

Results

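The endosomal sorting complexes required for transport (ESCRT) were examined in ZR-75-1, a long-used breast cancer cell line that carries the estrogen receptor, after transfection with a mimic of the microRNA miR-150-5p. The 32 genes considered were chosen by name, with earlier results of these data known. They are subunits of ESCRT-0, ESCRT-I, ESCRT-II, ESCRT-III and the VPS4 complex, together with 2 Bro1-domain adaptors. Of these, 25 have a probeset with a gene name and are described here, among 14884 genes measured. The measured members are 3 of 3 in ESCRT-0, 7 of 9 in ESCRT-I, 2 of 3 in ESCRT-II, 11 of 12 in ESCRT-III and 2 of 3 in the VPS4 complex. The levels of MVB12A, MVB12B, SNF8, CHMP3, VTA1, PDCD6IP and PTPN23 were not analysed here.

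ESCRT complexes collect ubiquitin-tagged membrane proteins on endosomes and bud them into the lumen, which makes multivesicular bodies that then fuse with lysosomes. ESCRT-0 gathers the cargo, ESCRT-I and ESCRT-II deform the membrane and recruit ESCRT-III, the filaments of ESCRT-III constrict the neck of the bud, and the ATPase VPS4 takes the filaments apart. In epithelial cells this route ends the signalling of growth factor receptors, and the same late machinery cuts the bridge between dividing cells.

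Total RNA of 9 cultures was measured on 9 Affymetrix Human Gene 2.0 ST arrays, 1 sample per array, 48 h after transfection. All 9 cultures received Lipofectamine RNAiMAX: 3 with no RNA (mock), 3 with 50 nM of a negative control RNA and 3 with 50 nM of the miR-150-5p mimic. The study is titled as a restoration of this microRNA to the line, so the comparisons ask which ESCRT transcripts differ once the mimic is present. Nothing in the labels says that the cultures of a group were transfected on separate occasions, and p-values here cover only the spread among them, which may be technical. The findings concern 1 cell line and a transient transfection.

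Levels are log2 intensities, on which a difference of 1 is a doubling. A gene was called where the adjusted p of limma's moderated test, corrected by Benjamini-Hochberg over all genes, was under 0.05. A level of 1 probeset cannot be set against that of another, so members are compared only with themselves across arrays. Array medians ran from 4.22 to 4.27 over all probesets. The first principal component held 24.0% of the variance and separated the mimic arrays (6.62 to 15.6) from the 6 control arrays (-9.74 to -0.41). Mock replicate 3 correlated no better with its own group (mean r across genes 0.9935) than with the other groups (0.9937), and so did mimic replicate 2 (0.9940 and 0.9941). All 11 measured markers of luminal breast epithelium lay above the median gene mean of 5.44, up to 12.1 for the keratin KRT18. So did 2 of 4 measured leukocyte markers, at up to 6.42, but 0 of 4 fibroblast and 0 of 6 endothelial markers. Such comparisons between probesets are only rough.

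The upstream sequences of 3 members are shown because these are the members with the largest negative differences in the mimic arrays. Each is the 250 bases before the annotated transcription start, 5′ to 3′ on the gene's strand, from RefSeq on GRCh38.p14, where 25 of the 32 genes have such an entry. Capitals mark exact matches, on either strand, to GGGCGG (the GC box), to CCAAT (the CAAT box), to TATAAA (the TATA box), to CACGTG (an E box) or to CCGGAA (the core bound by ETS factors).
VPS25, chr17:42773199-42773448, plus strand: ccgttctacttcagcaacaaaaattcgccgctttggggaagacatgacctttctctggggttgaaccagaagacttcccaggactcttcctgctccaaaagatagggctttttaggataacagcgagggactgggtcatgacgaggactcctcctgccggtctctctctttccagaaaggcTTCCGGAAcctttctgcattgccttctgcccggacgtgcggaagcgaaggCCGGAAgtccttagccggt
CHMP2B, chr3:87227059-87227308, plus strand: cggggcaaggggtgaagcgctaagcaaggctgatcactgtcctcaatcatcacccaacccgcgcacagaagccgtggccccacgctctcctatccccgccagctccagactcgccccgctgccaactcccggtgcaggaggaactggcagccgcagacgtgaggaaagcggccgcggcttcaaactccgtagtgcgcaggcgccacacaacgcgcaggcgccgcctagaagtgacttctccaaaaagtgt
CHMP2A, chr19:58555106-58555355, minus strand: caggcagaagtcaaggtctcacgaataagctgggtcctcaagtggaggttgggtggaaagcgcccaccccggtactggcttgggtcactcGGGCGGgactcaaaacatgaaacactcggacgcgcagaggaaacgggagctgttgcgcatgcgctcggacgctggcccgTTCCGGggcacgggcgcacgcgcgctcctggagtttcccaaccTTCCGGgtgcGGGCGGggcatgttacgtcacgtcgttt

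The window of VPS25 held 3 matches to CCGGAA, of which 2 overlap on opposite strands, and none to the other motifs. CHMP2A had 2 matches to CCGGAA and 2 to GGGCGG, and CHMP2B had no match to any of the motifs. The 25 genes with an entry are not the same 25 as those measured. Among them are MVB12A, MVB12B, SNF8, VTA1, PDCD6IP and PTPN23, whose levels were not analysed. Across the 25 genes with an entry, CCGGAA was found in 12, GGGCGG in 15, CCAAT in 7, CACGTG in 3 and TATAAA in 0. Of 15843 protein-coding genes, 19.3% held CCGGAA, 56.0% GGGCGG, 34.5% CCAAT, 7.84% CACGTG and 9.23% TATAAA. GC content was 54.0% for VPS25, 64.0% for CHMP2B and 63.6% for CHMP2A, and the median over all 35116 windows was 58.0%. These windows are a wider set than the 15843 protein-coding genes, for which no median GC content was computed. These matches describe letters only. The arrays did not measure binding or initiation, and no motif was common to the 3 genes.

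VPS25, a subunit of ESCRT-II that contacts the ESCRT-III subunit CHMP6, was lower on each of the mimic arrays than on every control array. Its log2 intensity was 9.80, 9.77 and 9.58 in mock, 9.54, 9.93 and 9.92 in the negative control and 8.95, 8.90 and 9.21 in mimic replicates 1, 2 and 3. The highest mimic array lay below the lowest control array, negative control replicate 1, so the mimic group overlapped neither control. VPS25 fell by 0.78 ± 0.13 (SE, n = 3 arrays per group) against the negative control, from 9.80 ± 0.23 (SD) to 9.02 ± 0.17, a 1.71-fold decrease with a 95% interval of the log2 change from -1.06 to -0.49 and an adjusted p = 0.0390 in limma's test. Against mock, at 9.72 ± 0.12, the log2 change was -0.70 ± 0.13 with an interval from -0.99 to -0.41 and an adjusted p = 0.0793, which did not pass. The change ranked 24th from the lowest among 14884 genes against the negative control and 20th against mock, both of which use the same mimic arrays. The negative control differed from mock by 0.08 ± 0.13 (adjusted p = 0.976). In bulk RNA fewer cells with the transcript and less transcript per cell cannot be told apart.

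The call of VPS25 was lost when any of 7 of the 9 arrays was left out, while the change stayed between -0.91 and -0.71. The adjusted p was 0.0651 and 0.0775 without mock replicates 1 and 2, 0.134 and 0.159 without negative control replicates 2 and 3, and 0.0972, 0.118 and 0.0531 without mimic replicates 1, 2 and 3. It was also lost in a fit of the 6 arrays of both groups alone (0.104) and when all 53617 probesets were tested (0.155). The 6 measured endothelial markers, all below the median gene mean, had a summed log2 level of 22.4 to 22.9 in mimic arrays, against 21.7 to 22.1 in mock and 21.3 to 22.2 in the negative control. The 11 luminal markers summed to 108.0 to 109.6, 106.9 to 108.3 and 106.5 to 107.1 in the same order. Their part in the changes of ESCRT members was not tested. The sums of 4 fibroblast markers (14.5 to 14.6 in mimic, 14.7 to 15.5 in mock, 14.1 to 14.9 in the negative control) and of 4 leukocyte markers (18.3 to 19.0, 18.6 to 19.3 and 18.5 to 19.0) overlapped between mimic and negative control; the fibroblast sum of every mimic array lay below mock.

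**Figure D1:**
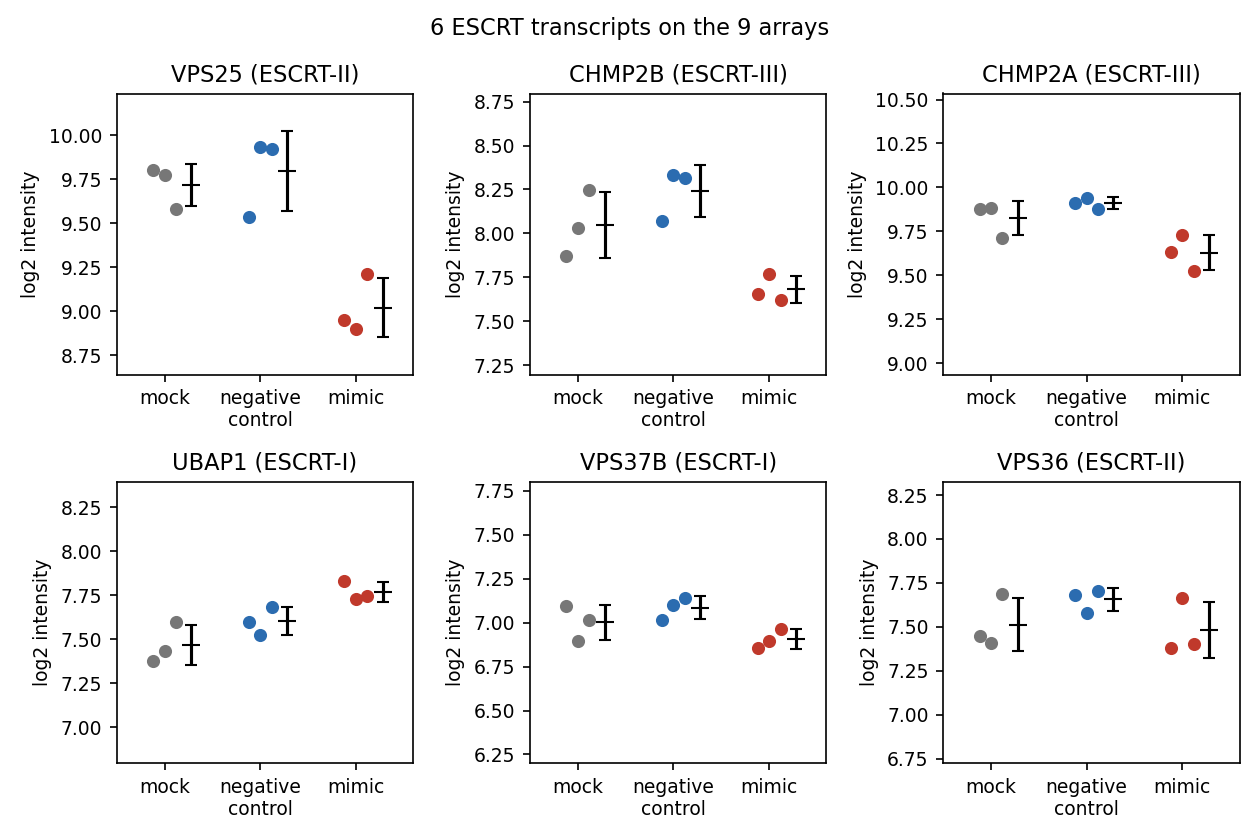
Log2 intensity (y axis, the same span of 1.6 in each panel) of VPS25, CHMP2B, CHMP2A, UBAP1, VPS37B and VPS36 by group (x axis); coloured points are arrays in the order of replicates 1 to 3, and the black mark and bar are the mean and SD of 3 arrays. VPS25 and CHMP2B lie lower and UBAP1 higher in all 3 mimic arrays than in all 6 control arrays, whereas VPS36 overlaps.

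VPS36, the ESCRT-II subunit that binds ubiquitin, did not separate the groups. It measured 7.45, 7.41 and 7.69 in mock, 7.68, 7.58 and 7.71 in the negative control and 7.38, 7.66 and 7.40 in the mimic arrays. Mimic replicate 2 lay within the range of both controls. The log2 change was -0.17 ± 0.10 against the negative control (interval -0.40 to 0.06, adjusted p = 0.533) and -0.03 ± 0.10 against mock (interval -0.26 to 0.20). Without mimic replicate 2 the first of these was -0.26. The within-array difference of VPS25 minus VPS36 averaged 1.54 in mimic, 2.14 in negative control and 2.21 in mock arrays, a shift of -0.60 and -0.67. Each shift had p = 0.1 in a two-sided exact permutation test, the smallest that 3 arrays against 3 allow. This difference and that of CHMP2B minus CHMP2A were the only 2 such pairs examined. Both start from a member with a large fall in these same arrays, and VPS36 and CHMP2A were added after their values were seen. The permutation p-values of both pairs therefore give no independent support.

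ESCRT-III, whose CHMP proteins polymerise into the filaments that narrow the bud neck, had 9 of 11 members with a negative change against each control, and none that passed. The largest was CHMP2B, a late-acting filament subunit known from inherited frontotemporal dementia. Its levels were 7.87, 8.03 and 8.25 in mock, 8.07, 8.33 and 8.32 in the negative control and 7.65, 7.77 and 7.62 in the mimic. No mimic array reached the lowest control array, mock replicate 1. CHMP2B differed by -0.56 ± 0.11 against the negative control (8.24 ± 0.15 and 7.68 ± 0.08, SD; interval -0.81 to -0.31; adjusted p = 0.0594) and by -0.37 ± 0.11 against mock (8.05 ± 0.19; interval -0.61 to -0.12; adjusted p = 0.260). It passed against the negative control without mock replicate 3 (adjusted p = 0.0439), with quantile normalization (0.0476), with a robust fit and an intensity trend in the spread (0.0356) and among genes above the median mean only (0.0197). The negative control was 0.19 ± 0.11 above mock, which did not pass (adjusted p = 0.976).

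CHMP2A, the paralogue of CHMP2B that recruits VPS4 through its C terminus, differed by less. Its levels were 9.88, 9.89 and 9.71 in mock, 9.91, 9.94 and 9.88 in the negative control and 9.63, 9.73 and 9.53 in the mimic. The mimic arrays lay below all negative control arrays, but mimic replicate 2 lay above mock replicate 3. The change was -0.28 ± 0.08 against the negative control (adjusted p = 0.175) and -0.20 ± 0.08 against mock (adjusted p = 0.421). The within-array difference of CHMP2B minus CHMP2A was -1.98, -1.96 and -1.90 in the mimic, -1.84, -1.61 and -1.56 in the negative control and -2.01, -1.85 and -1.47 in mock. It lay lower on every mimic array than on every negative control array, a shift of -0.28 (exact permutation p = 0.1, the smallest possible), and overlapped mock, with a shift of -0.17 (exact permutation p = 0.4). At this number of arrays the permutation test cannot reach 0.05 in either case.

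The other subunits of ESCRT-III differed from either control by at most 0.18 on the log2 scale. CHMP5, which binds the VPS4 cofactor, differed by -0.10 ± 0.08 against the negative control and by -0.18 ± 0.08 against mock, with mimic levels of 8.47, 8.519 and 8.35 below the mock levels of 8.73, 8.64 and 8.522. CHMP4B, the main filament-forming isoform, differed by -0.13 ± 0.07 and -0.10 ± 0.07. The related CHMP4A, near the median intensity of all genes, differed by -0.12 ± 0.09 and -0.05 ± 0.09, and CHMP4C, which delays the final cut in cell division, by -0.09 ± 0.07 and -0.10 ± 0.07.

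CHMP6, the partner through which ESCRT-II starts the filament, had the smallest change of the complex: -0.02 ± 0.08 against both controls, with intervals from -0.21 to 0.17. CHMP6 measured 7.39, 7.38 and 7.39 on the mimic arrays and between 7.24 and 7.54 on the control arrays. CHMP1A differed by -0.13 ± 0.08 and -0.03 ± 0.08, and IST1, a regulator of VPS4 recruitment, by -0.05 ± 0.08 and -0.05 ± 0.08. The table holds 1 identical value, 7.77, for IST1 on all 3 negative control arrays and on mock replicate 2. Its spread in the negative control is therefore estimated as 0. Exact ties between arrays also occurred in other members. CHMP4C, for example, had 7.27 on mock replicates 2 and 3, negative control replicate 2 and mimic replicate 2. The cause of the ties was not tested. Positive changes were found for CHMP7, the nuclear envelope recruiter of ESCRT-III (0.17 ± 0.08 and 0.13 ± 0.08), and CHMP1B, a partner of IST1 (0.13 ± 0.08 and 0.08 ± 0.08). Neither of them passed, with adjusted p = 0.445 and 0.579 against the negative control.

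**Figure D2:**
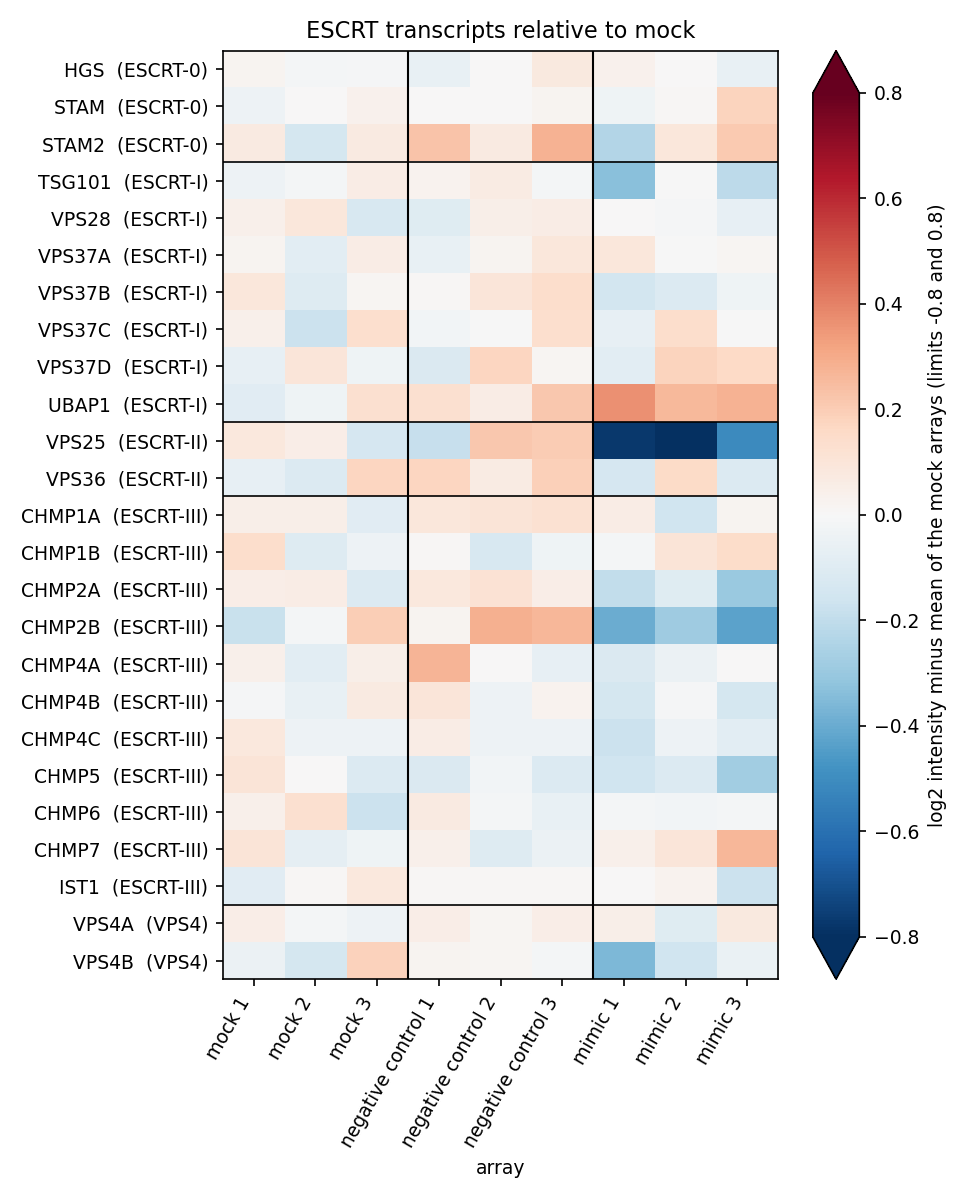
Log2 intensity of each of the 25 measured members (rows, by complex) on each of the 9 arrays (columns), minus that member's mean over the 3 mock arrays; blue is lower and red higher, with colours limited to -0.8 and 0.8. The VPS25 row is the darkest blue in the mimic columns, followed by CHMP2B, and the UBAP1 row is red there.

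In ESCRT-I, the bridge between cargo and the later complexes, no member passed in either comparison and the signs were mixed (4 of 7 negative against the negative control, 3 of 7 against mock). UBAP1, the subunit that directs ESCRT-I to endosomal sorting of receptors, was the member with the largest positive difference against mock. It measured 7.38, 7.43 and 7.60 in mock, 7.60, 7.53 and 7.68 in the negative control and 7.83, 7.73 and 7.75 in the mimic. All 3 mimic arrays lay above all 6 control arrays. The change was 0.30 ± 0.08 against mock (interval 0.12 to 0.48, adjusted p = 0.200) and 0.17 ± 0.08 against the negative control (interval -0.01 to 0.35, adjusted p = 0.432), and the negative control stood 0.13 ± 0.08 above mock.

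TSG101, the ubiquitin-binding core subunit that retroviruses recruit, measured 7.21, 7.23 and 7.31 in mock, 7.27, 7.31 and 7.23 in the negative control and 6.92, 7.25 and 7.04 in the mimic. Mimic replicate 2 lay within the controls, and the other 2 lay below them. The change was -0.21 ± 0.09 (adjusted p = 0.379) and -0.18 ± 0.09 (adjusted p = 0.511) against negative control and mock, and -0.13 and -0.11 without mimic replicate 1. VPS37B, 1 of 4 alternative VPS37 subunits, measured 7.10, 6.90 and 7.01 in mock, 7.01, 7.10 and 7.14 in the negative control and 6.86, 6.89 and 6.97 in the mimic. Its mimic arrays lay below the negative control but overlapped mock, with changes of -0.18 ± 0.08 (adjusted p = 0.373) and -0.10 ± 0.08. A second, dimmer VPS37B probeset, at 5.94 to 6.14 on all arrays, changed by -0.04 and 0.01.

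The remaining ESCRT-I subunits differed by less than 0.09 in either comparison. VPS28, which links ESCRT-I to ESCRT-II, differed by -0.03 ± 0.08 against both controls. VPS37A differed by 0.02 ± 0.07 and 0.04 ± 0.07, VPS37C by -0.01 ± 0.10 and 0.03 ± 0.10, and VPS37D by 0.06 ± 0.10 and 0.08 ± 0.10. VPS37D, at a mean of 5.28, was the single member below the median gene mean of 5.44.

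ESCRT-0, which binds ubiquitinated cargo together with clathrin, had no member that passed. HGS, its organising subunit, spanned 0.14 from the lowest to the highest of the 9 arrays, wider than the range of only 1.91% of all genes, and differed by -0.02 ± 0.07 and -0.01 ± 0.07. STAM, its partner, differed by 0.04 ± 0.07 and 0.05 ± 0.07. STAM2, the paralogue of STAM, varied more among replicates: it measured 7.81, 7.60 and 7.81 in mock, 7.97, 7.81 and 8.02 in the negative control and 7.51, 7.83 and 7.95 in the mimic. The mimic group overlapped both controls, with changes of -0.17 ± 0.12 (adjusted p = 0.599) and 0.02 ± 0.12 (adjusted p = 0.959). Without mimic replicate 1 the change against the negative control was -0.04.

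Of the VPS4 ATPases, VPS4B had the larger difference. It measured 9.43, 9.35 and 9.67 in mock, 9.51, 9.50 and 9.47 in the negative control and 9.12, 9.33 and 9.43 in the mimic. The mimic arrays lay below the negative control and overlapped mock, with changes of -0.20 ± 0.10 (adjusted p = 0.471) and -0.19 ± 0.10 (adjusted p = 0.552). Without mimic replicate 1 these were -0.11 and -0.10, and without mock replicate 3 the change against mock was -0.10. VPS4A differed by -0.03 ± 0.07 and 0.01 ± 0.07 and had a range of 0.18 over the 9 arrays. VPS25, by contrast, spanned 1.03, more than 97.1% of all genes.

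**Figure D3:**
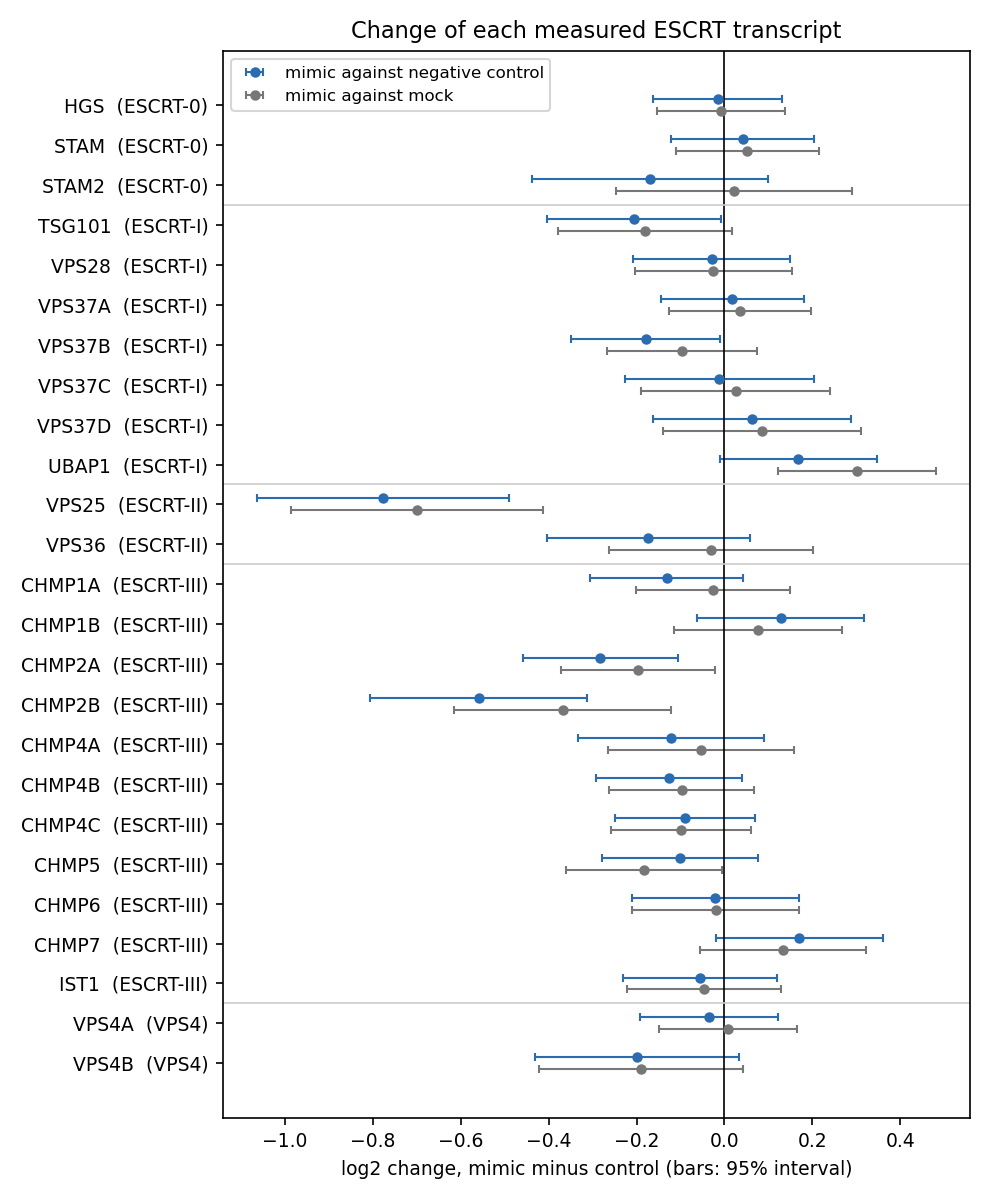
Log2 change (x axis) of each measured member (y axis, by complex) in mimic arrays against the negative control (blue) and against mock (grey), with limma's 95% interval as bars, n = 3 arrays per group. The intervals of VPS25, CHMP2B and CHMP2A lie below 0 in both comparisons, those of TSG101 and VPS37B lie below 0 against the negative control only and that of CHMP5 against mock only, and that of UBAP1 lies above 0 against mock only; the intervals are not corrected for the number of genes.

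Counted together, 1 of 25 members (VPS25) was called in mimic against negative control, where 0.551% of all genes were. The members were chosen with earlier results of these data known, so this count is not independent of the value of VPS25. In mimic against mock 0 members were called (0.302% of all genes) in limma's test. At an unadjusted p under 0.05 there were 5 members in the first comparison (VPS25, CHMP2B, CHMP2A, TSG101 and VPS37B, all lower), against 12.6% of all genes. The second had 5 (VPS25, CHMP2B, CHMP2A and CHMP5 lower, UBAP1 higher), against 10.7%. Of the 25 members, 24 lay above the median gene mean, where such p-values were more common. In limma's fit of those 7442 genes, 1390 had one in the first comparison and 1165 in the second, with 5 members in each. Arrays of the mimic lay wholly below the negative control for 6 members (CHMP1A, CHMP2A, CHMP2B, VPS25, VPS37B and VPS4B; 8.01% of all genes) and wholly above for 1 (UBAP1; 8.42%). Against mock they lay below for 3 (CHMP2B, CHMP5 and VPS25, against 5.44% of all genes) and above for 1 (UBAP1, against 7.21%). The shares of arrays not overlapping were not computed among genes above the median mean alone.

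The change was negative for 19 of 25 members against the negative control and for 16 of 25 against mock, where 46.5% and 46.1% of all genes had a negative one. The share among genes above the median gene mean, where 24 of the members lie, was not computed. The members' median log2 change was -0.09 and -0.03, and that of all genes was 0.01 in both comparisons. Relative to mock, the mean over the 25 members was -0.11, -0.04 and -0.04 in mimic replicates 1, 2 and 3, and -0.08, -0.003 and -0.03 over the 24 members other than VPS25. In the negative control arrays the mean over all 25 was 0.03, 0.04 and 0.06. STAM2, TSG101, VPS37B, VPS36, CHMP4A, CHMP4C and VPS4B each had their lowest value of the 9 arrays on mimic replicate 1. That array also had the lowest median over all genes, 5.42, where the others ran from 5.43 to 5.47. The share of all genes lowest on it was not computed, and the part of this offset was not tested.

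**Figure D4:**
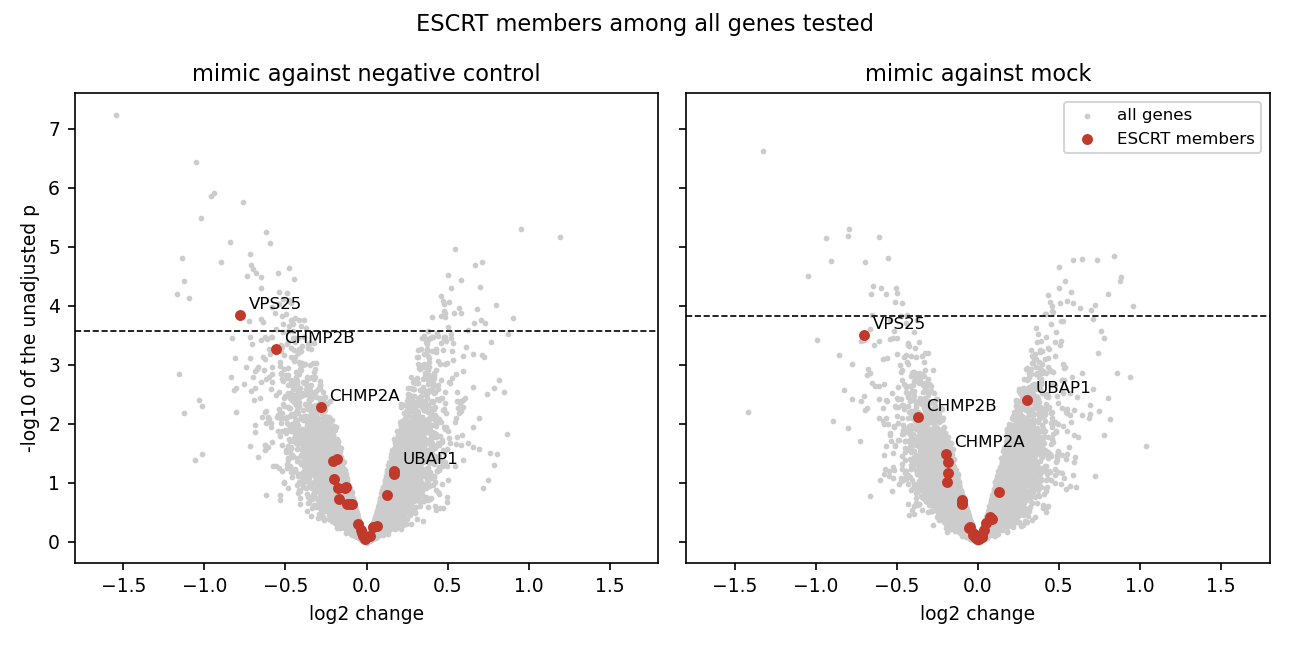
Each gene's log2 change (x axis) and -log10 of limma's unadjusted p (y axis) in mimic against negative control (left) and mimic against mock (right); grey points are all 14884 genes, red points the 25 ESCRT members, and the dashed line marks the largest p that passed after adjustment. VPS25 is the only red point above a line, on the left; CHMP2B lies next below it there.

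Between the negative control RNA and mock, which shows what an RNA without the mimic does, limma's test called 0 ESCRT members and 0% of all genes. At an unadjusted p under 0.05 there were 0 members, against 4.18% of all genes. CHMP1A, the single member whose arrays did not overlap, lay at 7.91, 7.92 and 7.94 in the negative control and at 7.86, 7.86 and 7.72 in mock (0.11 ± 0.08). Across all genes 4.77% lay wholly above mock, and 3.33% wholly below, where 0 members did. The change was negative for 4 of 25 members (CHMP1B, CHMP4C, CHMP5 and CHMP7), against 47.1% of all genes, with a median of 0.02. Since the negative control arrays also enter the first comparison, a level that is high in them raises this change and lowers that of the mimic. STAM2 (0.19 ± 0.12), CHMP2B (0.19 ± 0.11) and VPS36 (0.14 ± 0.10) had the largest positive differences.

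Genes that act beside ESCRT were described from lists of the endosomal route. No member passed in either comparison of the mimic among 8 measured alternative ubiquitin adaptors (such as the TOM1 family), 10 ubiquitin ligases and deubiquitinases of endosomal cargo, 12 ESCRT-III regulators and abscission factors, 5 genes of early endosomes and their lipid PI3P, 14 of retromer and sorting nexins, 16 of the tethers HOPS and CORVET and late endosomes, and 16 of multivesicular body and exosome cargo. Their median log2 changes against the negative control were 0.00, 0.05, 0.06, 0.02, -0.02, 0.00 and -0.03, in that order. Against mock the medians were 0.00, 0.10, 0.06, 0.09, 0.03, 0.06 and 0.02. Of the 11 luminal markers, ESR1, the estrogen receptor alpha gene, rose by 0.46 ± 0.07 and 0.45 ± 0.07 (adjusted p = 0.0295 and 0.0406 in limma's test), and 10 did not pass. None of the 4 fibroblast, 4 leukocyte and 6 endothelial markers passed in either comparison.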

How the data were processed

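The authors deposited 1 table of log2 intensities, made with RMA per the submitters' processing notes; no version or genome build is named in the sources used here. The values ran from 1.16 to 13.7. A platform annotation table named 16098 of 53617 probesets with 1 gene each, and only these entered the analysis by gene. The other 37519 were left out, and any with several gene names would be among them. Gene identifiers were matched to RefSeq (GRCh38.p14) for names, which changed 0 symbols. Where a gene had more than 1 probeset (779 genes), the brightest by its mean over 9 arrays was kept, and dim genes were not filtered.

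All 9 arrays were fitted with limma 3.58.1 in R 4.3.3 (lmFit, eBayes), 1 mean per group, 6 residual degrees of freedom, two-sided, Benjamini-Hochberg adjusted over 14884 genes, threshold 0.05. Errors of changes are limma's moderated standard errors, and intervals are at 95%. The fit was tested on simulated data. Precision is limited by the number of arrays. The table holds no background values.

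Members and lists were chosen with earlier results of these data known. Every measured member is named; values on every array are given for VPS25, for each complex's member with the lowest p against the negative control, and for called members. CHMP2A, UBAP1, TSG101 and VPS36 were added after their values were seen. Of other lists only called genes are named, the luminal marker KRT18 excepted. Alternatives were other scalings, probeset rules, a filter on dim genes, other fits, and leaving out each array.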

Additional observations from a re-analysis of the deposited data

How the results depend on the processing

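The number of ESCRT members called against the negative control, 1 in the analysis reported, was 2 with quantile normalization, 2 among genes above the median mean and 2 with a robust fit and an intensity trend in the spread (VPS25 and CHMP2B each time), and 0 in a fit of both groups alone or with all probesets tested. Without 1 array it lay between 0 and 2. Against mock, 0 members became 1, VPS25, among genes above the median mean, with the intensity trend, and when the mimic was set against the mean of both controls (-0.74, adjusted p = 0.0189). In the 18 alternatives VPS25 lay between -0.91 and -0.71 against the negative control, passing in 8, and between -0.80 and -0.64 against mock, passing in 3. The fit against the mean of both controls is counted in both, although it is not a test against mock alone or the negative control alone. CHMP2B passed in 4 and in 0.

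Over all genes, 82 calls against the negative control became 263 among genes above the median mean, 8 with both groups alone, 169 with the trend, 6 with all probesets and 163 against the mean of both controls, and 7 to 121 without 1 array. Against mock, 45 became 102, 1, 66, 3 and 163 in the same order, and 1 to 10 without 1 array. The 163 in both lists come from the same fit. The median change of the members lay between -0.108 and -0.0550 against the negative control without 1 array, and was -0.0738 against the mean of both controls. STAM2 against mock changed sign with quantile normalization (-0.0131), against the mean of both controls (-0.0738) and without single arrays (-0.0715 to 0.150), as did VPS36 without single arrays (-0.121 to 0.0571). The cause was not tested. In negative control against mock, no gene was called under any alternative.

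With the replicate number as a replicate block, 16 genes passed against the negative control and 3 against mock, with 0 members in both; VPS25 had an adjusted p = 0.0685 and 0.134. Same-numbered arrays deviated together with r from -0.06 to 0.13 across genes, above 0.1 in 2 of 9 pairs, and the labels name nothing that a number marks, so the block was not used for the values reported. That 6 of 9 arrays correlated best with an array of their own number is at most a hint of pairing from the data, not the design. The number expected without pairing was not computed. The highest r of any pair, 0.16, joined arrays of different numbers, mock replicate 2 and mimic replicate 1. The lowest, -0.18, also did. Whether the numbers pair the samples was not settled.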

Other observations

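In RefSeq's gene order no other gene overlaps VPS25. The 5 nearest measured protein-coding genes on each side of it (PSMC3IP, CCR10, CNTNAP1, EZH1, RAMP2, then WNK4, COA3, CNTD1, PTGES3L-AARSD1 and RUNDC1) changed by -0.25 to 0.12 against the negative control, and none passed in limma's test (lowest adjusted p = 0.420). RAMP2, WNK4, CNTD1 and CCR10 had mean levels of 3.88, 3.31, 4.08 and 4.41, below the median gene mean of 5.44, where a fall may be harder to see. COA3, an assembly factor of cytochrome c oxidase, differed by 0.01 ± 0.07. This set of neighbours was chosen after the value of VPS25 was seen.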
